A study of Mus musculus with 23 samples.

Results

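The proteasome subunit genes are the protein-coding genes whose mouse symbol starts with Psm, followed by a letter from a to g and a digit. The choice rests on spelling, not on any measured value, and gave 50 genes of the 55487 gene IDs counted, after 4 pseudogenes with matching symbols had been left out. They comprise 8 alpha subunits and 7 constitutive beta subunits of the 20S core, 4 inducible or thymic beta subunits, 17 subunits of the 19S cap, 7 assembly chaperones, 5 activators and 1 inhibitor. The remaining gene, Psmc3ip, has the spelling but codes for a protein of meiotic recombination.

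RNA was sequenced from 23 libraries of primary hippocampal neurons, isolated from C57Bl/6 mouse pups at postnatal day 1 and grown in microfluidic chambers whose narrow channels let axons reach a separate side. Every culture, controls included, was given magnetic nanoparticles (MNPs) at 5 µg/ml. Stretched cultures stood in a magnetic field gradient of 50 T/m between DIV 1 and DIV 6 (days in vitro), which pulls on the particles, and control cultures in a null gradient. RNA came either from the axonal side or from the side of cell bodies and dendrites, which the labels give as total cell culture and which is called somata here. The groups are control axons (n = 5), control somata (n = 6), stretched axons (n = 6) and stretched somata (n = 6). The labels do not say that replicates came from separate cultures or animals, so p-values measure only the spread between these libraries, which may be technical.

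The proteasome degrades proteins that carry ubiquitin chains. Its 20S core is a barrel in which outer rings of alpha subunits gate the entrance and inner rings of beta subunits cut the substrate, and its 19S cap binds ubiquitin, removes the chain and threads the unfolded protein into the core. Activators can bind the core in place of the cap, inducible beta subunits can replace the catalytic ones in an immunoproteasome, and dedicated chaperones assemble the parts without staying in the finished particle. In neurons protein degradation by the proteasome takes part in axon growth, in synaptic plasticity and in the removal of damaged proteins. The subunits are needed in fixed proportions, and transcription factors of the Nfe2l family, which bind antioxidant response elements, can raise many of the genes together.

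Promoter sequences were read for the 42 members with an entry in the RefSeq promoter table (assembly GRCm38.p6, from 250 bases before to 50 bases after each start). The core of the antioxidant response element, TGACNNNGC on either strand, lay in 6 of these 42 windows (14.3%), beside 14% of the 27025 genes in the table. It was found in 4 of the 24 members with an entry that were lower in stretched somata (16.7%) and in 2 of the other 18 (11.1%). The CCAAT box, a general promoter element searched on both strands, lay in 15 of the 42 (35.7%), beside 41.1% of all genes, and a match of one motif can share bases with a match of the other. Psma8, Psmd7, Psmb1, Psmd3, Psmb7, Psmc3, Psmb2 and Psmg2 had no entry. The 250 bases before the start are printed 5′ to 3′ for the 4 lower members that hold the motif, so that its place can be seen, with the match in capitals. Psmb5 (chr14:54617996-54618245, minus strand) and Psmb6 (chr11:70525107-70525356, plus strand) code for catalytic subunits of the core, Psmd12 (chr11:107479278-107479527, plus strand) for a lid subunit of the cap and Psmd9 (chr5:123227940-123228189, plus strand) for an assembly chaperone.
Psmb5: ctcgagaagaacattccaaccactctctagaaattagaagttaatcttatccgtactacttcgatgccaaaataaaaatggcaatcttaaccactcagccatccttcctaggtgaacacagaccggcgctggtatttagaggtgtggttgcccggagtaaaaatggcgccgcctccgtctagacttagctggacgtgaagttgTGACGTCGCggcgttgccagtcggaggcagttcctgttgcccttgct
Psmb6: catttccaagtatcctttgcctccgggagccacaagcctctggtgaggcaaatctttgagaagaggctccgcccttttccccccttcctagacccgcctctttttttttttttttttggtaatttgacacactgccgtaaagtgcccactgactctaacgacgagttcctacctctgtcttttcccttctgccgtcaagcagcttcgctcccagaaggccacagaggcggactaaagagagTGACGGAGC
Psmd12: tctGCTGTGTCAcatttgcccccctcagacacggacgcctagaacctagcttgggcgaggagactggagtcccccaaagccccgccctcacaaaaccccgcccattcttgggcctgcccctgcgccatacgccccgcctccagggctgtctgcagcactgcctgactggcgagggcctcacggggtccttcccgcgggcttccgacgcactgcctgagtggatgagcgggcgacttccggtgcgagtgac
Psmd9: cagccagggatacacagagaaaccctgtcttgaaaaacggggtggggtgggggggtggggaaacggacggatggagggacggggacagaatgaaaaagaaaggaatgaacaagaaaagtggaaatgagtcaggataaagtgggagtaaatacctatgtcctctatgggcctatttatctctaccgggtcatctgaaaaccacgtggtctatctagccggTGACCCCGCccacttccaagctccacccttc
The match starts 47 bases before the start in Psmb5, 9 bases before it in Psmb6 and 31 bases before it in Psmd9. In Psmd12 it lies 247 bases before the start, on the other strand. A match of these letters is a description of the window and says nothing of binding in these cells.

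Each library held between 16369153 and 43048953 counts assigned to genes. The soma libraries had a count for 22452 to 24575 genes and for 49 or 50 of the 50 members, whereas the axon libraries had a count for 4263 to 10242 genes and for 32 to 47 members. Values are given as counts per 1000000 gene-assigned counts (CPM). In the axon libraries, labelled as pure axonal preparations, 8 neuron markers summed to between 1283 and 4465 CPM and 8 astrocyte markers to between 4651 and 25629 CPM. In the soma libraries the neuron markers summed to between 5829 and 7214 CPM and the astrocyte markers to between 5121 and 14076 CPM. Most of the astrocyte sum in axons was Gfap, with means of 12715 of 15710.5 CPM in control and 7712 of 10142 CPM in stretched axons. Over the 8 astrocyte markers the median log2 fold change of axons against somata was -0.48 in control and -0.83 in stretched cultures. No astrocyte marker passed the edgeR test described below. The 8 neuron markers had medians of -0.99 and -1.66. A change in CPM cannot tell fewer cells of a type from less RNA per cell.

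Levels of different genes were set side by side only per kilobase of transcript (mean CPM per kb). In control somata the highest members were core and cap genes, led by Psma7 of the alpha ring at 555 and the catalytic beta subunit Psmb6 at 461 CPM per kb. Psmb3 stood at 355, Psmb2 at 311, the ATPase Psmc1 at 295 and the lid subunit Psmd7 at 274 CPM per kb. The catalytic subunits Psmb5 and Psmb7 were at 132 and 62.2 CPM per kb, so the catalytic trio spanned a wide range although the particle holds them in equal number. The inducible replacements of that trio were lower, with Psmb10 at 24.6, Psmb8 at 8.55 and Psmb9 at 2.57 CPM per kb. Of the activators, Psme2 and Psme1 were at 96.8 and 90.2, Psme3 at 19.3 and Psme4 at 1.66 CPM per kb. The germ-line alpha subunit Psma8, with 16 counts over all libraries, and the thymic beta subunit Psmb11, with 34, had too few counts to be tested.

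The first comparison asks how these genes differ between stretched and control cultures on the cell-body side. In stretched somata 29 of the 48 members tested fell and none rose (edgeR quasi-likelihood test, Benjamini-Hochberg adjusted p under 0.05, n = 6 in each group). That is 60.4% of the members, whereas 13.9% of the 15632 genes tested were lower and 11.2% were higher. No member rose by DESeq2 (14.1% of genes) or limma voom (17.3%), which gave 30 and 34 lower members (16.5% and 18.5% of genes), and 0 had a positive change with an unadjusted p under 0.05. The log2 fold change was negative for 44 of the 48 members, with a median of -0.31 beside -0.03 over all genes tested. All members together made up 0.983% ± 0.083 of the counts in control somata and 0.810% ± 0.0334 in stretched somata (SD, n = 6), with sums of 8502 to 10713 CPM and 7776 to 8572 CPM. The values did not overlap between the groups for 8 members, all lower in stretched somata (Psma4, Psmb4, Psmb5, Psmc2, Psmc3, Psmd7, Psmd12 and Psme1), beside 2.27% of all genes tested, and 0 members were higher without overlap, beside 1.84%. Leaving out each of the 12 libraries in turn gave between 21 and 36 lower members, and 20 were lower in the full fit and in all 12 of these fits. The count was highest, at 36, without control soma 4 (20.1% of all genes lower) and lowest without control soma 5. With replicate numbers as a block 22 members were lower (10.7% of all genes) and 0 higher (9.96%). With offsets for transcript length and GC content 12 were lower, 8 of them among the 29, and 1 was higher (8.48% and 5.22% of all genes). In the soma libraries with lower levels of the Y-linked gene Eif2s3y, taken alone, 0 members and 0% of all genes passed, against 28 lower members (14.2% of all genes) without control soma 4. Markers of cell types moved in the same comparison: of 8 neuron markers 3 fell (Rbfox3, Stmn2 and Tubb3) and 1 rose (Syt1), with sums of 6642 ± 480 CPM in control and 6215 ± 263 CPM in stretched somata (SD, n = 6). Of 10 microglial markers 3 fell, and of 8 astrocyte markers none passed. Their part in the members' values was not tested.

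**Figure D1:**
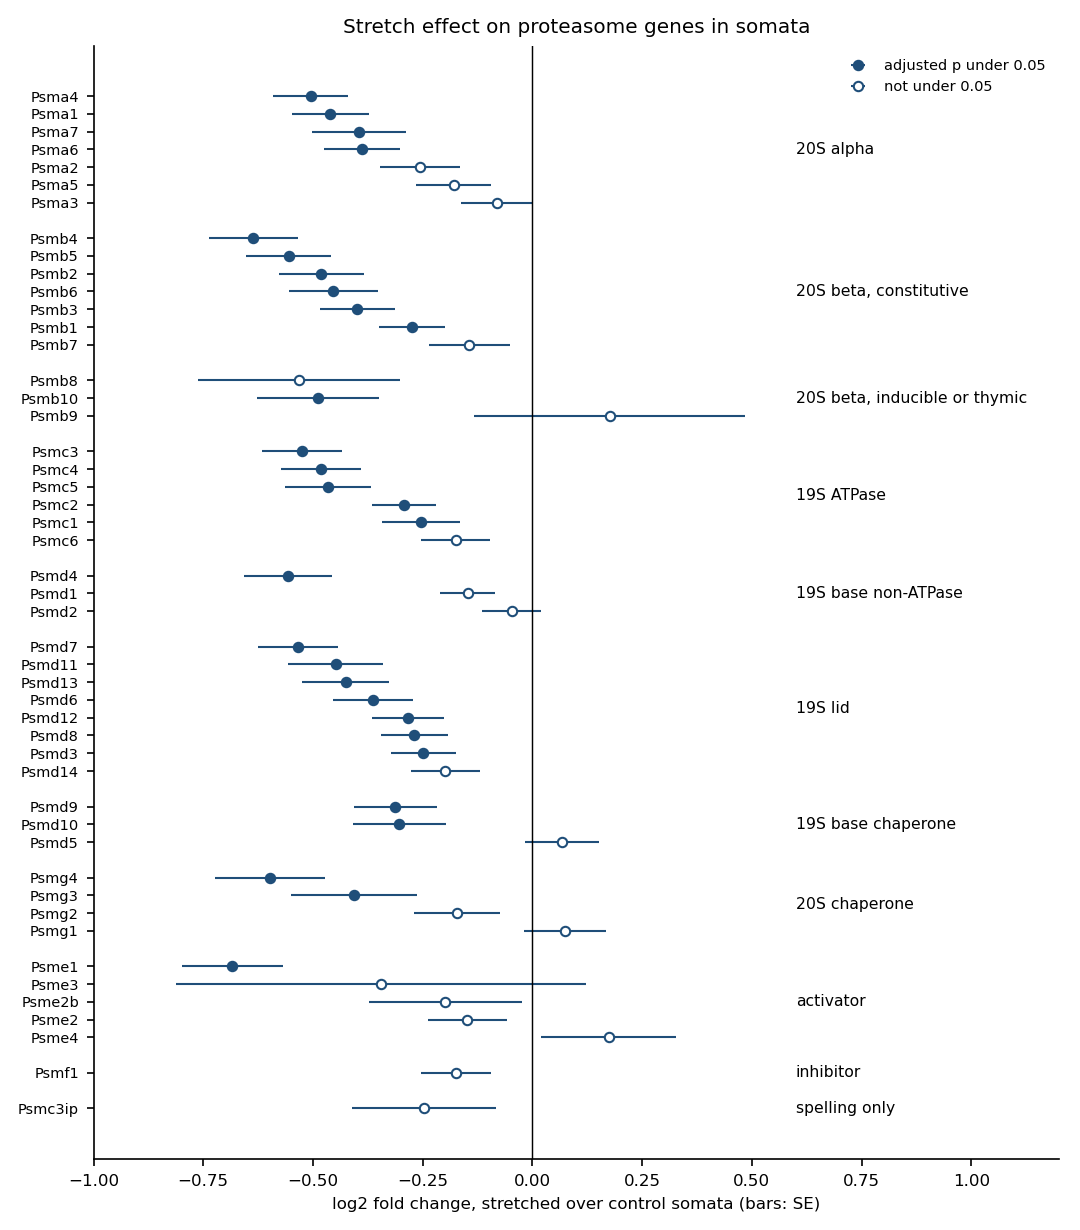
Log2 fold change (stretched over control somata) of the 48 members tested, in rows by class, with error bars of 1 standard error and filled points for an edgeR adjusted p under 0.05. Core and cap subunits lie mostly left of 0, with 29 filled points, none of them to the right of 0.

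In the 20S core, 10 of 14 constitutive subunits tested fell, with a median log2 fold change of -0.40. The beta ring, which holds the catalytic sites, had 6 of 7 members lower (median -0.45), and the alpha ring 4 of 7 (median -0.39). Psmb4, a structural beta subunit (chr3:94884093-94886961, minus strand), had control values of 159, 212 and 232 CPM (lowest, median and highest) and stretched values of 125, 132 and 154 CPM. Every stretched library was below every control library, and the log2 fold change was -0.64 ± 0.10 (SE, edgeR adjusted p = 0.00293), the lowest of the core. Among alpha subunits Psma4 was the lowest, with 154, 196 and 208 CPM in control and 126, 138 and 142 CPM in stretched somata. Its groups did not overlap either (log2 fold change -0.50 ± 0.085, adjusted p = 0.00356). At the other end Psma3, another alpha subunit, had 327, 370.3 and 427 CPM in control and 336, 373 and 386 CPM in stretched somata, and its groups overlapped throughout (log2 fold change -0.08 ± 0.082, adjusted p = 0.485).

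Of the catalytic beta subunits, which differ in the residues they cut after, Psmb5 and Psmb6 fell and Psmb7 did not pass the test. With offsets for transcript length and GC content neither Psmb5 (adjusted p = 0.0891) nor Psmb6 (adjusted p = 0.405) passed. Psmb5, the chymotrypsin-like subunit (chr14:54614119-54618022, minus strand), had 91.0, 121 and 134 CPM in control and 78.4, 81.4 and 89.4 CPM in stretched somata. All 6 stretched values were below the lowest control value (log2 fold change -0.56 ± 0.097, adjusted p = 0.00402). Psmb6, the caspase-like subunit (chr11:70525367-70527858, plus strand), had 287, 373 and 418 CPM in control and 249, 268 and 332 CPM in stretched somata. It fell by 0.45 on the log2 scale (SE 0.10, adjusted p = 0.00843), with overlap, the highest stretched value being that of stretched soma 4. Psmb7, the trypsin-like subunit, had 66.6, 71.8 and 80.2 CPM in control and 56.0, 66.2 and 82.9 CPM in stretched somata, and the groups overlapped across the whole control range (log2 fold change -0.14 ± 0.093, adjusted p = 0.266). The difference between these subunits in their change was not tested. The other core subunits that fell were Psma1, Psma6, Psma7, Psmb1, Psmb2 and Psmb3, with log2 fold changes from -0.48 (Psmb2) to -0.27 (Psmb1). Psma2 had a log2 fold change of -0.26 and an adjusted p of 0.0508.

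**Figure D2:**
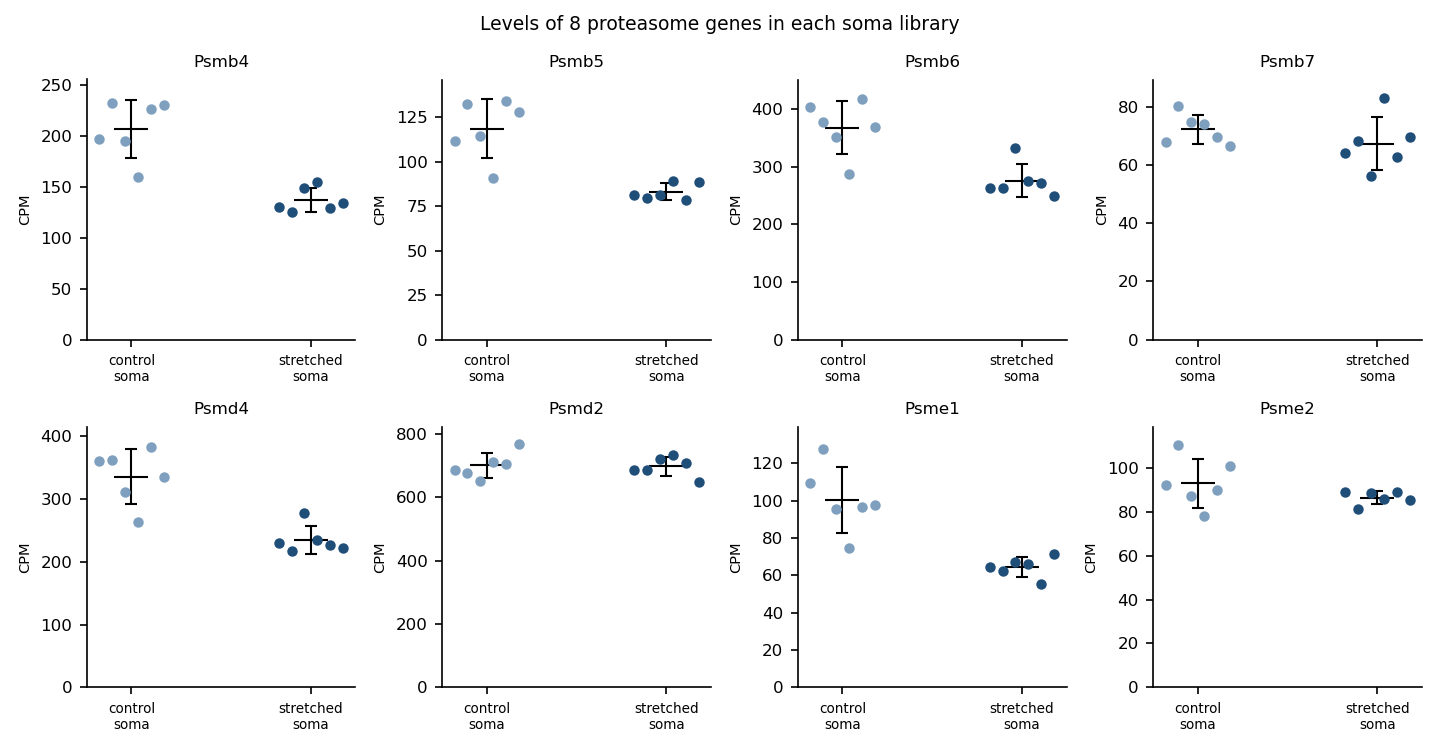
CPM of 8 members in each control and stretched soma library, 1 panel a gene, points for libraries and bars for the mean and SD. Psmb4, Psmb5 and Psme1 separate the groups, Psmb6 and Psmd4 overlap through 1 high stretched library (332 and 278 CPM), and Psmb7, Psmd2 and Psme2 overlap widely.

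In the 19S cap, 13 of 17 subunits fell (median log2 fold change -0.29). The ring of ATPases that unfolds the substrate had 5 of 6 members lower (median -0.38). Psmc3 was the lowest of them, with 284, 365 and 407 CPM in control and 237, 256 and 269.8 CPM in stretched somata. Its groups did not overlap (log2 fold change -0.53 ± 0.091, adjusted p = 0.00402). Psmc6 had the highest value of the ring, -0.18 ± 0.079 (adjusted p = 0.113), from 183, 197 and 225 CPM in control and 166, 177 and 210.5 CPM in stretched somata. Psmc4, Psmc5, Psmc2 and Psmc1 fell by 0.48, 0.47, 0.29 and 0.25 on the log2 scale.

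Of the 3 base subunits outside the ATPase ring 1 fell (33.3%, median -0.15), beside 13.9% of all genes tested. Psmd4, a ubiquitin receptor of the cap (chr3:95032694-95042614, minus strand), had 264, 348 and 383 CPM in control and 217, 229 and 278 CPM in stretched somata. It fell by 0.56 on the log2 scale (SE 0.10, adjusted p = 0.00432), and stretched soma 4 held the only stretched value within the control range. Psmd2, the large scaffold on which shuttle proteins dock, had 652, 697 and 769 CPM in control and 649, 697 and 734 CPM in stretched somata. Its groups overlapped throughout (log2 fold change -0.05 ± 0.067, adjusted p = 0.628), and the related scaffold Psmd1 had a log2 fold change of -0.15 without passing the test.

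In the lid, which carries the deubiquitinating enzyme of the cap, 7 of 8 subunits fell (median -0.32). The lid member that did not pass was that enzyme itself, Psmd14, with 251, 291 and 306 CPM in control and 236, 252 and 279.9 CPM in stretched somata (log2 fold change -0.20 ± 0.078, adjusted p = 0.0736). All 8 lid members had an unadjusted p under 0.05 in the edgeR test, and the difference between Psmd14 and the others was not tested. Psmd7, the partner subunit of Psmd14, had 366, 447 and 488 CPM in control and 283, 303 and 352 CPM in stretched somata, with no overlap. It fell by 0.53 on the log2 scale (SE 0.091, adjusted p = 0.00356). The other lid subunits, Psmd11, Psmd13, Psmd6, Psmd12, Psmd8 and Psmd3, fell by 0.45, 0.43, 0.36, 0.28, 0.27 and 0.25.

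Of the 7 assembly chaperones 4 fell (median log2 fold change -0.30, beside -0.29 for the cap). Their summed level was 394 ± 19.7 CPM in control and 385 ± 18.1 CPM in stretched somata (SD, n = 6). Of these sums Psmd5 alone, which did not fall, had means of 205 CPM in control and 221 CPM in stretched somata. Psmg4, which works with Psmg3 on the alpha ring, had 15.3, 22.3 and 24.9 CPM in control and 13.2, 14.8 and 15.9 CPM in stretched somata. All control libraries but 1, control soma 4, lay above the stretched range (log2 fold change -0.60 ± 0.13, adjusted p = 0.00689, and -0.25, adjusted p = 0.105, with offsets for length and GC content). Psmg1, which pairs with Psmg2 at an early step of ring assembly, had 27.5, 31.7 and 34.0 CPM in control and 30.9, 33.1 and 38.9 CPM in stretched somata, which overlap (log2 fold change 0.07 ± 0.094, adjusted p = 0.583). Psmg3 (-0.41, adjusted p = 0.0489), Psmd9 (-0.31) and Psmd10 (-0.30) also fell, and Psmg2 and Psmd5 had log2 fold changes of -0.17 and 0.07.

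**Figure D3:**
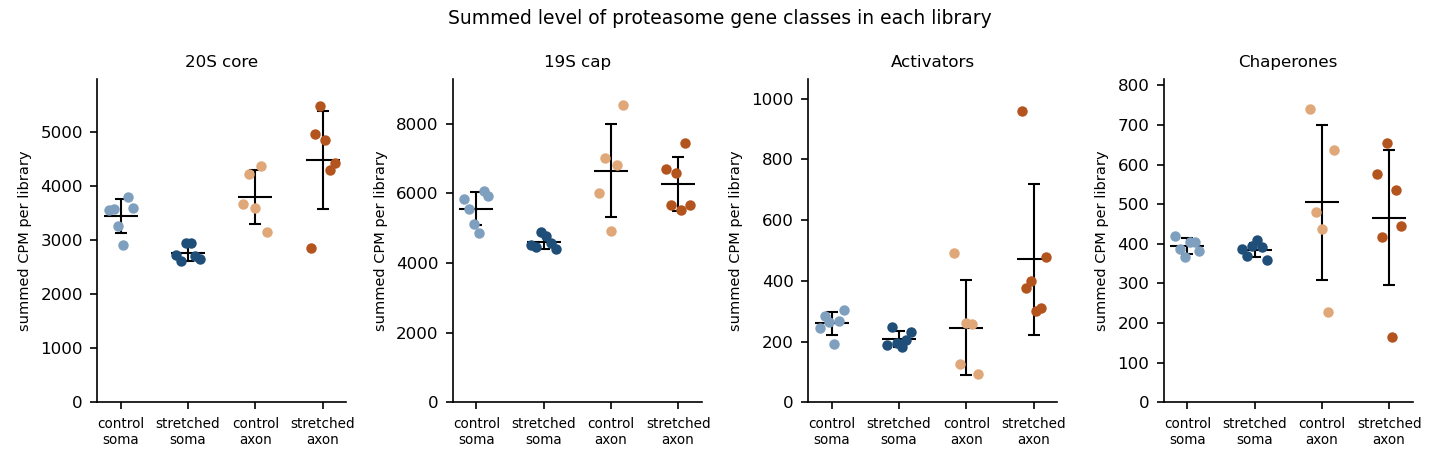
Summed CPM of the 20S core, 19S cap, activators and assembly chaperones in each library of the 4 groups, points for libraries and bars for the mean and SD. In somata the mean core and cap sums are lower in stretched libraries, with overlap through the lowest control library, the chaperone sums overlap widely, and the axon libraries spread more widely than the soma libraries in every class.

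The core summed to 3454 ± 315 CPM in control and 2766 ± 148 CPM in stretched somata, a ratio of the means of 0.801 (SD, n = 6). The cap summed to 5564 ± 486 and 4598 ± 190 CPM, a ratio of 0.827. The cap to core ratio within a library was 1.56 to 1.67 in control and 1.62 to 1.70 in stretched somata, and these ranges overlap. Core and cap sums of the groups overlapped only through the lowest control library, control soma 4. The alpha to beta ratio was 1.11 to 1.29 in control and 1.28 to 1.35 in stretched somata, so the ranges met only at their edge. These sums carry no test of their own.

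Of the 5 activators 1 fell (20%), beside 13.9% of all genes tested and 28.4% of the genes of 1100 to 2028 nt. Psme1 (chr14:55578123-55581529, plus strand) and Psme2 (chr14:55587441-55591113, minus strand) are neighbours in the genome and their proteins form 1 mixed ring that opens the core. Psme1 had 74.8, 97.2 and 128 CPM in control and 55.2, 65.2 and 71.5 CPM in stretched somata, with no overlap. It had the lowest log2 fold change of all 48 members, -0.68 ± 0.11 (adjusted p = 0.00356). Psme2 had 78.1, 91.2 and 110.5 CPM in control and 81.3, 87.2 and 89.3 CPM in stretched somata, all stretched values lying inside the control range (log2 fold change -0.15 ± 0.090, adjusted p = 0.236). The ratio of Psme1 to Psme2 in CPM was 0.957, 1.09 and 1.18 in control and 0.620, 0.762 and 0.839 in stretched somata, without overlap. The difference between the changes of the pair was not tested. Psme2 and its near-identical copy Psme2b share reads that align to more than 1 place, so both of their values are uncertain.

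Psme3, whose ring works in the nucleus, had 21.5, 49.3 and 93.8 CPM in control and 15.1, 32.4 and 92.1 CPM in stretched somata, with values scattered several-fold within each group (log2 fold change -0.34 ± 0.47, adjusted p = 0.618). Psme4, a large single-chain activator, had 8.10, 10.7 and 14.2 CPM in control and 10.7, 12.4 and 14.9 CPM in stretched somata (log2 fold change 0.17 ± 0.15, adjusted p = 0.428). The groups of both genes overlapped widely. The inhibitor Psmf1 had 94.4, 105 and 109.6 CPM in control and 86.0, 92.5 and 105 CPM in stretched somata (log2 fold change -0.17 ± 0.080, adjusted p = 0.116). Psmc3ip, the meiotic gene, had a log2 fold change of -0.25 and did not pass the test.

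The immunoproteasome subunits replace Psmb5, Psmb6 and Psmb7 in cells exposed to interferon and in immune cells. Psmb8, the counterpart of Psmb5, had 8.10, 13.4 and 21.4 CPM in control and 6.87, 10.2 and 12.4 CPM in stretched somata (log2 fold change -0.53 ± 0.23, adjusted p = 0.0995). Psmb9, the counterpart of Psmb6, had 1.41, 3.74 and 5.33 CPM in control and 2.99, 4.13 and 4.90 CPM in stretched somata (log2 fold change 0.18 ± 0.31, adjusted p = 0.706). Psmb10, the counterpart of Psmb7, had 26.1, 31.7 and 39.1 CPM in control and 16.8, 24.7 and 27.5 CPM in stretched somata. It was the only one of the 3 to fall (log2 fold change -0.49 ± 0.14, adjusted p = 0.0207), with some overlap, and did not pass with offsets for length and GC content (-0.19, adjusted p = 0.292). The inducible to constitutive ratio of the catalytic subunits was 0.065 to 0.113 in control and 0.064 to 0.11 in stretched somata, much the same range. The microglial markers that fell were C1qa, C1qb and Tyrobp, and the list of 10 had sums of 72.8 to 138.9 CPM in control and 55.3 to 75.2 CPM in stretched somata. Of 10 interferon response genes 1 rose (Tap2), beside 11.2% of all genes tested. Their sums were 427 to 699 and 373 to 571 CPM. The part of microglia or interferon in the Psmb10 values was not tested.

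Among 28 tested genes that act with the proteasome outside the spelling rule, 9 fell and 3 rose in stretched somata by edgeR. Over all genes tested 13.9% were lower and 11.2% higher. The fold changes of these genes carry no offsets for transcript length and GC content. Of the bound proteins, the ubiquitin receptor Adrm1 had 236.8, 272.7 and 323.7 CPM in control and 187.7, 202.0 and 262.4 CPM in stretched somata (log2 fold change -0.44, adjusted p = 0.0122). The deubiquitinase Uchl5, which Adrm1 recruits, fell by 0.50 (adjusted p = 0.00595), and so did Pomp, a maturation factor of the core, by 0.43 (adjusted p = 0.00616). The other cap deubiquitinase, Usp14, and the small lid subunit Sem1 had log2 fold changes of 0.11 (adjusted p = 0.368) and -0.03 (adjusted p = 0.823). Of the transcription factors, Nfe2l1 rose, from 94.2, 133.8 and 204.8 CPM to 182.9, 209.0 and 233.8 CPM (log2 fold change 0.61 ± 0.15, adjusted p = 0.0125). Its RNA was thus higher in the same libraries in which 29 subunit genes were lower, and control soma 4, at 204.8 CPM, was the only control library inside the stretched range. Nfe2l2 did not pass the test (log2 fold change -0.48). Ube3c and Ecpas, which bind the particle, rose by 0.42 and 0.33. The greatest change was that of Zfand5, a zinc finger protein that binds the proteasome, which had 37.1, 141 and 199 CPM in control and 27.4, 38.4 and 43.6 CPM in stretched somata (log2 fold change -1.83, adjusted p = 0.00774). Its control values spread widely, and the lowest of them, that of control soma 4, lay inside the stretched range. The ubiquitin genes Rps27a and Ubb fell by 0.62 and 0.43.

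Transcript length moved with the soma result. Over the genes tested the log2 fold change had a Spearman correlation of 0.48 with transcript length and -0.28 with GC content, and over the 48 members 0.37 and -0.45, as a description across genes that share the same libraries. The members are short, with a median of 1408 nt beside 2955 nt over the genes tested. Lower members had a median of 1332 nt and the rest 1628 nt. Among the 3096 genes of similar length (1100 to 2028 nt) 28.4% were lower, with a median log2 fold change of -0.28 beside -0.31 for the members. With offsets for length and GC content in the fit, the 8 lower members shared with the 29 were Psmd11 (-0.46), Psmb4 (-0.36, adjusted p = 0.0165), Psme1 (-0.36, adjusted p = 0.0125), Psmd7 (-0.34), Psma4 (-0.32), Psma1 (-0.29), Psmc3 (-0.26) and Psmd4 (-0.26, adjusted p = 0.039). The catalytic subunits Psmb5 (-0.22) and Psmb6 (-0.11) no longer passed, and Psmg1 was the member that rose (0.34, adjusted p = 0.0328).

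**Figure D4:**
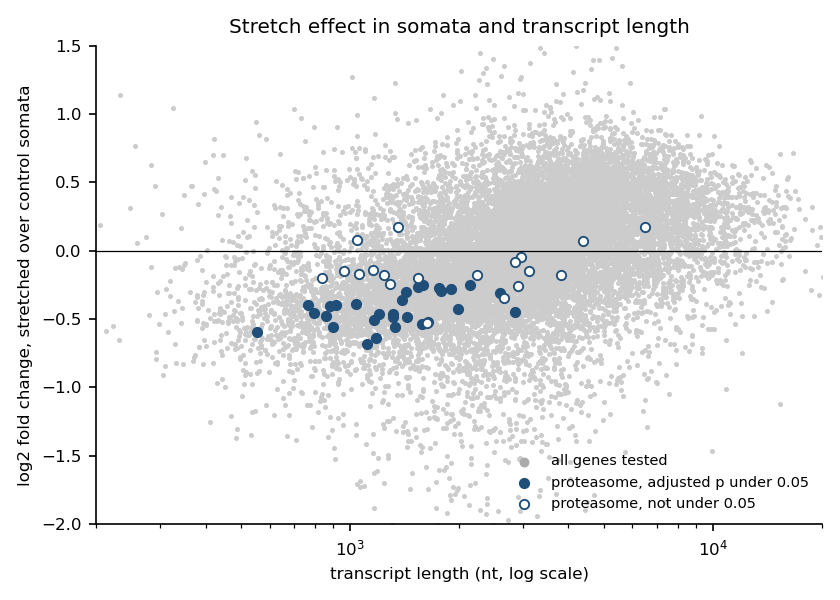
Log2 fold change (stretched over control somata) against transcript length in nt on a log axis, grey for the genes tested that fall within the axes and blue for the members, filled where the edgeR adjusted p is under 0.05. The members sit at the short end of the range, where the grey points also lie below 0 more often than at the long end.

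The soma libraries also fall into sets by the level of Eif2s3y, a Y-linked gene, with 24.7 to 28.7 CPM in control libraries 1, 2 and 3 and stretched libraries 1, 2 and 8, and 5.39 to 13.2 CPM in the others. No label gives these sets as a batch. With the set as a covariate 32 members were lower (17.9% of all genes), and within the higher set alone 26 were lower (12.7%). Within the lower set alone 0 members passed the edgeR test, as did 0% of all genes, while 16 members had an unadjusted p under 0.05. Without control soma 4 that set gave 28 lower members (14.2% of all genes) and 1 higher, Psmb9 (log2 fold change 1.04). All 29 lower members had a negative change in both sets.

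The axon libraries held RNA of most, but not all, members. In all 11 of them 17 members had a count, in 10 or 11 of them 30 members, and in none Psma8 and Psmb11. The cap was detected most evenly, with 11 of 17 subunits in all 11 libraries, followed by the core with 6 of 15. No chaperone, activator or inducible subunit was found in all 11. These class counts are not matched for level. Every cap subunit had a mean of 157 CPM or more in somata. The activators, the inducible subunits and all chaperones but Psmd5 were under 100 CPM, and the core includes Psma8 at 0.051 CPM. A difference between classes in detection was not tested. Of the 31 members whose soma level reached 100 CPM, the median control axon library held 90.3% and the median stretched axon library 98.4%, beside 72.3% and 80.9% of the 2354 genes at that level. Of these 31 members 74.2% were in every control axon library and the same percentage in every stretched one, beside 38.2% and 35.3% of genes. Between 10 and 100 CPM the 14 members had a median of 57.1% detected in both groups, beside 31.9% and 39.1% of 7056 genes. A library with no count of a gene allows up to 3 counts, which is 0.0697 to 0.183 CPM depending on its depth and covers counting error only.

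**Figure D5:**
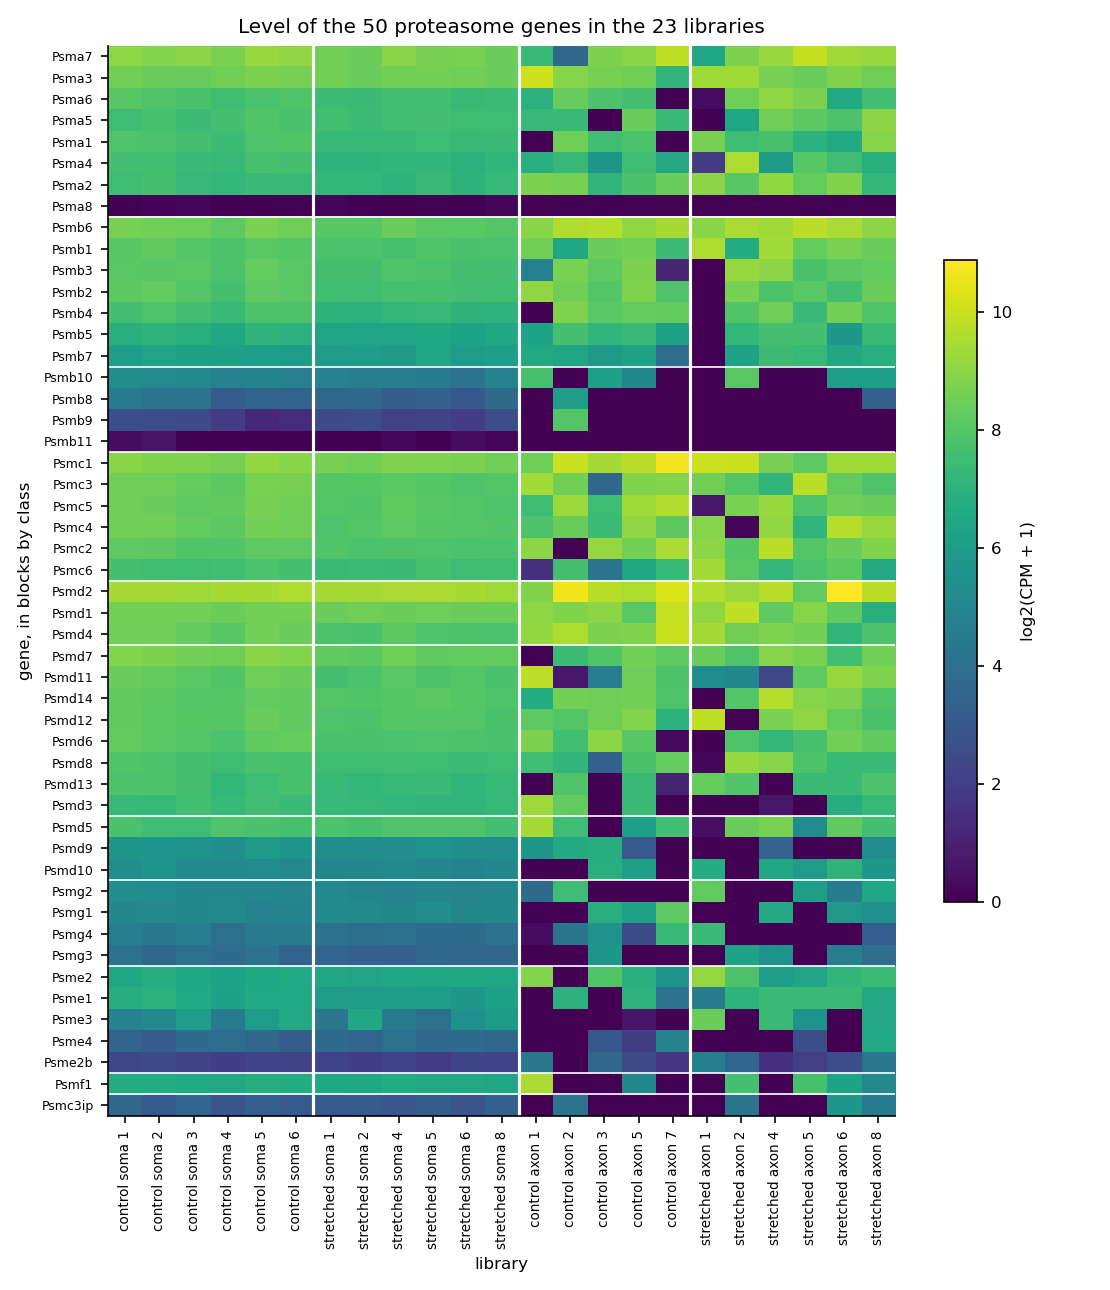
Level of each of the 50 members, as log2(CPM + 1), in each of the 23 libraries, with genes in rows by class and libraries in columns by group. Soma columns are alike, whereas axon columns hold scattered gaps at 0, mostly among chaperones, activators and inducible subunits and least among cap subunits. The classes are not matched for soma level.

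The second comparison sets axons beside somata in control cultures. Of 48 members tested 1 was lower in axons (Psme3) and none was higher by edgeR, beside 34.4% and 0.856% of the 14728 genes tested. Members had a median log2 fold change of -0.19 and all genes one of -1.40, both on the scale of the fitted normalisation. With scaling by total counts alone these medians were 0.09 and -1.27, and 3 members were higher (1.24% of genes) and 1 lower (34.2%). DESeq2 also gave 3 higher members (1.91% of genes) and 1 lower (34.6%), whereas limma voom gave 0 higher (0.577%) and 13 of 48 lower, where 66.7% of all genes were lower. The values over all genes depend on the level of the genes compared. With genes at a mean of at least 10 CPM alone, the edgeR medians were -0.27 for members and -0.54 for genes. In that fit 1 member and 802 of 9067 genes were lower. At 100 CPM or more in somata, the median log2 ratio of mean CPM plus 1 was 0.08 for members and -0.29 for genes. The axon libraries vary far more among themselves than the soma libraries, so an adjusted p above the threshold here does not show that levels were alike.

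The 2 members with the clearest axonal levels belong to the core and the cap. Psmb6 had 489, 759, 821, 559 and 698 CPM in control axons 1, 2, 3, 5 and 7, all above its range of 287 to 418 CPM in control somata (log2 fold change 0.60 ± 0.22, adjusted p = 0.0599). Psmd4 had 554, 736, 419, 458 and 1013 CPM, all above its soma range of 264 to 383 CPM (log2 fold change 0.64 ± 0.26, adjusted p = 0.0886). In CPM these were the only members that lay above somata without overlap, beside 0.978% of genes. Both passed with total counts, with the size factors of DESeq2 and in its own test. CPM carry no scaling factors, which in the fit were 0.946 to 1.25 in control axons and 0.911 to 0.945 in control somata. With values divided by these factors the groups of both members overlap. Psmc1, the highest of the ATPases, had 359, 988, 679, 829 and 1675 CPM, which is higher than its highest soma library (551 CPM) in 4 of 5 libraries (log2 fold change 0.70 ± 0.34, adjusted p = 0.169).

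The other catalytic and regulatory members showed no such order. Psmb5 had 79.6, 205, 141, 169 and 74.8 CPM in control axons, on both sides of its soma range (log2 fold change -0.07), and Psmb7 had 95.8, 83.0, 58.2, 78.3 and 13.8 CPM (-0.40). Psmd14 had 104, 384.5, 364.5, 387 and 235 CPM (log2 fold change -0.17). In the alpha ring Psma4 and Psma2 marked the ends with log2 fold changes of -0.87 and 0.55, and Psmb3 was the lowest beta subunit at -0.46. Psmc6 (-1.38) and Psmd13 (-1.52) were the lowest of the cap, Psmd13 with 0, 243, 0, 172 and 1.09 CPM. Among the chaperones the ends were Psmg3 (-0.54) and Psmg1 (1.42), both absent from some libraries. None of these members passed the test.

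Activators and inducible subunits were present in some axon libraries and at 0 in others. Psme3 had no count in control axons 1, 2, 3 and 7 and 0.488 CPM in control axon 5, below its soma range of 21.5 to 93.8 CPM. It was the 1 lower member (log2 fold change -8.97 ± 2.16, adjusted p = 0.00543) and the only one below somata without overlap, beside 40.6% of genes. Psme1 had 0, 125, 0, 133 and 15.7 CPM (log2 fold change -1.10) while Psme2 had 471, 0, 242, 115 and 47.0 CPM (0.64), so only control axons 5 and 7 held both partners of the ring. Psme4 had 0, 0, 6.97, 3.11 and 27.8 CPM (-0.73) and Psmf1 732, 0, 0, 31.4 and 0 CPM (0.21). Psmb8 and Psmb9 had a count only in control axon 2, at 65.8 and 249 CPM, far above their soma values (log2 fold changes -0.52 and 3.40). Psmb10 was at 212, 0, 69.8, 31.0 and 0 CPM (0.66). These members' values rest on 1 or a few libraries each. The 10 microglial markers had a count in 2 of 5 control axon libraries, with sums of 0 to 561.8 CPM, and in 4 of 6 stretched ones, with sums of 0 to 736.3 CPM, and their part in these values was not tested.

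The same comparison in stretched cultures gave 1 higher and 1 lower member of 48 by edgeR, beside 0.843% and 28.4% of the 14466 genes tested. Psmb6 was higher in axons, with 486, 722, 651, 858, 717 and 505 CPM in stretched axons 1, 2, 4, 5, 6 and 8 and 249 to 332 CPM in somata. Again no axon library reached down to the soma range in CPM (log2 fold change 0.77 ± 0.23, adjusted p = 0.0204). Per kilobase of transcript its mean level was 834 CPM per kb in control axons and 823 CPM per kb in stretched axons, beside 461 and 346 CPM per kb in the matching somata. Psmc2 also lay above somata without overlap, with 503, 258, 871, 252, 336 and 445 CPM beside 221 to 240 CPM, but did not pass the test (log2 fold change 0.47 ± 0.33, adjusted p = 0.471). These 2 members without overlap in CPM compare with 1.35% of genes. The scaling factors of the fit were 0.992 to 1.47 in stretched axons and 0.836 to 0.853 in stretched somata. With values divided by these factors the groups of both members overlap. The call of Psmb6 was lost without a filter on low counts, with a filter at 10 CPM, by limma voom, with replicate numbers as a block and without stretched soma 8, at log2 fold changes between 0.73 and 0.82.

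Psmb9 had no count in any of the 6 stretched axon libraries and a mean of 4.05 CPM in stretched somata. It was at least 29.0-fold lower in axons, taking 3 counts per axon library as the bound (edgeR adjusted p = 1.55e-06). Psmd9 lay below somata without overlap as well, at 0, 0, 9.68, 0, 0.0521 and 38.6 CPM beside 39.4 to 46.4 CPM (log2 fold change -2.65, not called), and 34.6% of genes did so. Psmb8 had a count only in stretched axon 8, at 9.46 CPM (log2 fold change -2.89), and Psmb10 had 0.0381, 272, 0, 0, 66.4 and 69.7 CPM (1.03). Psme1 was found in all 6 stretched axon libraries, at 21.4, 133, 159, 164, 166 and 94.3 CPM (0.49), and Psme2 at 564, 231, 67.6, 81.3, 141 and 174 CPM (0.69). Both partners of the ring thus had a count in every stretched axon library, with Psme2 uncertain because of its copy Psme2b. Neither was called between stretched and control axons by edgeR. Of all genes at 10 to 100 CPM in somata the median control axon library held 31.9% and the median stretched one 39.1%. A difference in detection of the pair was not tested.

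Of the remaining stretched axon values, Psme3 had a log2 fold change of 0.79, Psme4 one of 0.22 and Psmf1 one of -0.58. Psmb5, Psmb7, Psmd4 and Psmd14 had 0.19, 0.16, 0.13 and 0.11. Within their classes Psma3 (-0.14) and Psma2 (0.84), Psmb2 (-0.14), Psmc5 (-0.12), Psmd3 (-2.03) and Psmd12 (0.20), and Psmg3 (0.84) were at the ends. None of them passed the test. Over all members the median was 0.13, beside -1.13 over all genes. Scaling by total counts alone moved these medians to 0.60 and -0.73 and gave 3 higher members (1.95% of genes) and 1 lower (28%). With genes at a mean of at least 10 CPM alone the edgeR medians were 0.13 for members and -0.52 for genes. In that fit 0 members and 599 of 9308 genes were lower. At 100 CPM or more in somata, the median log2 ratio of mean CPM plus 1 was 0.55 for members and -0.29 for genes.

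The effect of stretch within axons is the comparison with the least precision. None of the 45 members tested passed, as none of the 4947 genes did (0% in each direction by edgeR), and 1 member, Psme3, and 46 genes had an unadjusted p under 0.05 in the edgeR test. No member separated the groups, beside 0.222% of genes lower and 0.101% higher without overlap. DESeq2 called 1 member higher, Psme3, beside 0.303% of genes, and 0 lower, beside 0.0606%, and limma voom called 0 members. Standard errors of the members ran from 0.41 to 3.75 on the log2 scale, so a change as large as those in somata was not detectable at this spread. The median log2 fold change of members was 0.30, beside 0.02 over the genes tested.

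Psme3 had 349, 0, 171, 45.7, 0 and 93.9 CPM in stretched axons 1, 2, 4, 5, 6 and 8, where control axons had 0.488 CPM in 1 library and 0 in the rest. The groups still share the value 0 (log2 fold change 9.68 ± 3.75, edgeR adjusted p = 1). Psmb6 was the steadiest member, with a log2 fold change of -0.01 ± 0.41. Psmb5 and Psmb7 had -0.06 and 0.65, Psmd4 -0.79 and Psmd14 0.35. Psme1, Psme2 and Psme4 had 1.10, 0.18 and 1.37, Psmf1 -0.78 and Psmb10 0.09, while Psmb8 and Psmb9 had too few counts to be tested. The ends of the classes were Psma3 (-0.10) and Psma4 (0.83), Psmb2 (-0.60), Psmc5 (-0.58) and Psmc6 (1.53), Psmd3 (-2.19) and Psmd13 (1.07), and Psmd9 (-2.55) and Psmg3 (1.35). By class, the core summed to 3808 ± 502 CPM in control (SD, n = 5) and 4486 ± 903 CPM in stretched axons (SD, n = 6), and the cap to 6655 ± 1337 and 6268 ± 767 CPM. Activators summed to 245 ± 157 and 471 ± 248 CPM and chaperones to 505 ± 197 and 466 ± 171 CPM. The groups overlapped in each of these classes, and the sums carry no test.

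Whether stretch acted differently in axons and somata was tested as an interaction in 1 model over all 4 groups, which share 1 estimate of the spread although axon libraries vary more. Of 48 members 1 was lower (Psmb9) and 1 higher (Psme3) by edgeR, beside 8.93% and 12.8% of genes. Psmb9 had an interaction of -13.1 ± 3.24 (log2, adjusted p = 0.0161), but a fitted value against libraries at 0 is no bound and it rests on the 249 CPM of control axon 2, and without that library it was -0.30 and did not pass. Psme3 had an interaction of 9.86 ± 2.71 (adjusted p = 0.0166), with a count in 1 of 5 control and 4 of 6 stretched axon libraries and in every soma library. Neither passed with limma voom or with replicate numbers as a block, Psme3 did not pass as a difference of separate fits, where Psmb9 was not tested, and DESeq2 called only Psme3. The median over members was 0.43, beside 0.04 over genes.

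For the subunits that fell in somata the interaction had wide errors. Psmb5, Psmb6, Psmd4 and Psme1 had 0.39 ± 1.32, 0.34 ± 0.38, -0.33 ± 0.47 and 1.68 ± 1.76, and Psmb10 had 0.50 ± 2.57. Psmb7, Psmd14, Psme2, Psme4 and Psmf1 had 0.68, 0.41, 0.25, 1.18 and -0.69, and Psmb8 had -2.16. The ends of the classes were Psma3 (-0.10) and Psma4 (1.25), Psmb2 (-0.21) and Psmb1 (0.74), Psmc1 (-0.29) and Psmc6 (1.65), Psmd3 (-1.96) and Psmd13 (1.46), and Psmd9 (-2.26) and Psmg3 (1.59). None of these passed, and at these errors a difference as large as the changes in somata was not detectable.

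The other proteasome pathway genes gave few calls outside somata. In axons 0 of 21 tested passed between stretched and control by edgeR, as 0% of all genes did, with 0 at an unadjusted p under 0.05. Between axons and somata of control cultures 0 of 28 did, with 1 at an unadjusted p under 0.05 (Sem1). Over all genes 34.4% were lower and 0.856% higher there. The list had a median log2 fold change of -0.84, and with the spread of axon libraries 0 calls do not show that levels were alike. In stretched cultures Uba6, a ubiquitin-activating enzyme, was lower in axons, with no count in the 6 axon libraries and 24.5 to 40.3 CPM in somata (adjusted p = 2.00e-05), and the ubiquitin gene Rps27a was higher (log2 fold change 0.98). These calls among 28 genes compare with 28.4% of all genes lower and 0.843% higher. Uba6 was also the 1 gene of the list with an interaction past the threshold (edgeR adjusted p = 0.0161), where 8.93% of all genes were lower. That interaction rests on 1 of 5 control axon libraries, at 37.9 CPM, since Uba6 had no count in the others.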

How the data were processed

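Raw counts per Ensembl gene ID were deposited by the authors, 1 file per library, with totals of reads that were not counted at the end (14.2 to 24.4% of all lines), which were left out. Libraries were made from poly(A) RNA with a low-input amplification kit that adds unique molecular identifiers, per the labels. The submitters' processing notes name FastQC 0.11.9, MultiQC 1.12, fastp 0.20.1, STAR 2.7.08a, HTSeq 0.13.5 and the build mm10. The annotation release, the strand setting and the use of the identifiers are not given in the sources used here. Amplified reads are not independent molecules unless the identifiers were used, so floors of 3 counts cover counting error only, and amplification can widen the spread of low-input axon libraries.

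Symbols, lengths and gene positions came from an annotation of GRCm38, the same assembly as mm10, which matched 55141 of 55487 IDs. The members and lists were chosen with earlier results of these data known. Each comparison was fitted on all genes past edgeR's filter in R 4.3.3 (edgeR 4.0.16, TMM scaling, robust quasi-likelihood F test, Benjamini-Hochberg adjustment over all genes tested, threshold 0.05), on the libraries of its own groups, or of all 4 groups for the interaction. Alternatives used DESeq2 1.42.0, limma 3.58.1 and other scalings, filters and libraries, and offsets for length and GC content were fitted with mgcv 1.9.3. The fits were also run on simulated counts with known changes, and the results are not reported here. No replicate pair agreed within sampling noise. Levels are CPM without TMM factors, and fold changes carry them. The standard errors of edgeR fold changes are the absolute log2 fold change divided by the square root of F. With a group at or near 0 counts neither the fold change nor this error is a bound.

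Named in every comparison were the catalytic and inducible beta subunits, Psme1, Psme2, Psme3, Psme4, Psmf1, Psmd4 and Psmd14, and the members with the lowest and highest log2 fold change of each class. Other members were named from counts after their values were seen. Single libraries far from their group were found by Dixon's test at 95% confidence. Soma replicate numbers were compared for pairing, whose result stands with the effects of the processing. Promoter windows came from RefSeq (GRCm38.p6). No set test was run. Some results for single pathway genes are not reported here.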

Additional observations from a re-analysis of the deposited data

Results flagged for a closer look

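In groups of 4 to 10 libraries, 151 sets of member values were screened for a library far from the rest with Dixon's test, and 22 were found. The test flags about 1 in 20 sets of normally distributed values. Axon values are often 0, and a set with a count in 1 library alone is always flagged. That rate therefore does not apply here, and the number of flags measures no excess. Most were in axon libraries. In control axon 2, Psmb8 was at 65.8 CPM and Psmb9 at 249 CPM while the other 4 libraries were at 0. The catalytic counterparts of these inducible subunits, Psmb5 and Psmb6, were at 205 and 759 CPM there, inside or near the range of the other control axons. In stretched axon 8, Psmb8 was at 9.46 CPM with the others at 0, Psme4 at 97.9 CPM, and the base chaperone Psmd9 at 38.6 CPM. Stretched axon 1 was high for Psme2 (564 CPM), for the ATPase Psmc6 (664 CPM), for the chaperone Psmg4 (161 CPM) and for the sum of activators (959 CPM). Stretched axon 2 was high for Psma4 (747 CPM) and Psmb10 (272 CPM), stretched axon 5 for Psmc3 (860 CPM) and stretched axon 6 for the scaffold Psmd2 (1886 CPM). Among control axons, Psmf1 was at 732 CPM in library 1, Psmg3 at 53.6 CPM and the sum of all members at 9286 CPM, the lowest of its group, in library 3, Psme3 at 0.488 CPM in library 5, and Psme4 at 27.8 CPM and Psmg4 at 161 CPM in library 7. Of the flags 3 fell in somata. Psmb6 was at 332 CPM and Psmd4 at 278 CPM in stretched soma 4, both above the other stretched somata, and Psmb1 was at 245 CPM in stretched soma 5.

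The effect of stretch differed between axons and somata by the interaction test for Psmb9 (-13.1, adjusted p = 0.0161, edgeR) and Psme3 (9.86, adjusted p = 0.0166). For Psmb9 the difference rests on control axon 2, without which it was -0.30.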

How the results depend on the processing

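The count of members called between stretched and control somata was 29, beside 3929 of 15632 genes. It was 21 without a filter (3030 of 32870 genes) and 21 to 36 leaving out 1 library. It lay between 25 and 34 with other scalings, DESeq2, limma voom, a filter at 10 CPM or no mitochondrial genes. It was 8 with a log2 fold change of at least 0.5 required (1936 of 15632 genes) and 13 with length and GC offsets (2141 of 15632). With all 4 groups in 1 fit it was 0 (0 members at an unadjusted p under 0.05), as 0 of 16113 genes passed. The shared biological coefficient of variation of that fit was 1.70 beside 0.24 in somata. The count was 0 in the Eif2s3y-lower libraries alone (0 of 15718 genes). That setting without control soma 4 was chosen after seeing the data. In axons the count of 0 became 1 by DESeq2 (18 of 4947 genes) and stayed 0 leaving out 1 library. It became 2 with all 4 groups in 1 fit, where 3870 of 16113 genes were called. Between control axons and somata the count of 1 became 3 with RLE factors (5218 of 14728 genes) and 4 with total counts (5226 of 14728). It was 4 by DESeq2 (5375 of 14728), 3 without a filter (10714 of 30188) and 1 to 5 leaving out 1 library. By limma voom it was 13, where 9912 of 14728 genes were called. In stretched cultures the count of 2 became 4 with total counts (4326 of 14466 genes) and 0 with a filter at 10 CPM (634 of 9308). It was 7 by limma voom, where 10203 of 14466 genes were called, and 1 to 4 leaving out 1 library. The interaction count of 2 became 1 by DESeq2 (1466 of 16113 genes) and 0 by limma voom (0 of 16113). It was 0 as separate fits (2 of 4882 genes) and 2 to 3 leaving out 1 library. Direction turned for Psmb8 (interaction 8.69, beside -10.47 without stretched axon 8) and Psmb9 (control axon against soma -9.56) without control axon 2, and by limma voom for Psme4 (stretched axon against soma -6.50) and Psmf1 (control axon against soma -8.00). The cause of these changes was not tested.

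Same-numbered soma libraries had a mean correlation of deviations of 0.235 (lowest 0.0155), beside -0.0375 for libraries of different number. Of 5 numbers 2 correlated best with their own. These values do not settle whether replicate numbers pair the soma libraries. With the replicate number as a block 22 members were called in somata (3227 of 15584 genes). With offsets for length and GC content as well 9 were called (1791 of 15584). The block gave 0 members in axons (0 of 4294 genes) and 0 for the interaction (0 of 16220). It gave 1 in control axons against somata (5051 of 14345 genes) and 3 in stretched ones (7687 of 14466).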

Other observations

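Levels of the immunoproteasome subunits were set beside the sets of soma libraries that differ in the Y-linked gene Eif2s3y. In the libraries with higher Eif2s3y, Psmb8 was at 16.6 to 21.4 CPM in control and 11.4 to 12.4 CPM in stretched somata, and in the others at 8.10 to 10.3 and 6.87 to 9.01 CPM. Psmb9 was at 4.70 to 5.33 and 4.62 to 4.90 CPM in the higher set and at 1.41 to 2.79 and 2.99 to 3.64 CPM in the lower set. Psmb10 was at 34.5 to 39.1 and 25.3 to 27.5 CPM in the higher set and at 26.1 to 28.9 and 16.8 to 24.2 CPM in the lower set, so the sets overlap over both treatments. Psmb8 and Psmb9 were the only members above the lower set without overlap over both treatments (4.17% of 48, beside 3.36% of genes), and Psmd2 was the only one below it (2.08%, beside 1.69% of genes), shares close to those over all genes. The same sets differed in astrocyte markers, which summed to 10726 to 14076 CPM in the higher set and 5121 to 6310 CPM in the lower, and in interferon response genes, at 533 to 699 and 373 to 452 CPM. The part of these cells and genes in the levels of Psmb8 and Psmb9 was not tested.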
